A study of Mus musculus with 2 samples.

Results

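Mural cells, the cells that wrap the outside of blood vessels, were picked out of 2 single-cell RNA sequencing libraries made from the dorsal telencephalon of E16.5 mice, that is, embryos of day 16.5, of the wild type (WT). A cell counted as mural when it held at least 1 unique molecular identifier (UMI, the tag that marks 1 captured mRNA molecule) of at least 4 of the 7 genes Pdgfrb, Rgs5, Kcnj8, Abcc9, Vtn, Notch3 and Cspg4, at least 2 UMIs of Rgs5, at most 1 UMI of the endothelial gene Cldn5, and none of the fibroblast genes Lum and Dcn. The rule was met by 240 of the 16348 cells that held 1500 to 60000 UMIs, less than 10% of them mitochondrial, and no cell was removed as a doublet. In WT replicate 1 these were 126 of 8139 cells (1.55%, 95% Wilson interval 1.30 to 1.84%) and in WT replicate 6 114 of 8209 (1.39%, 1.16 to 1.67%), a mean of 1.47% ± 0.113 (SD, n = 2).

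The libraries belong to a series that set embryos with a conditional knockout, labelled Emx1Dot cKO, against controls. Both libraries used here carry the label WT and come from brain hemispheres without further treatment, and the knockout was not analysed here. Emx1-Cre acts in the excitatory lineage of the dorsal telencephalon, from which mural cells do not derive. Each library stands for 1 sample, so every test below rests on 2 sums per cell class and measures only the spread between these 2 libraries.

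Mural cells comprise pericytes, which sit on capillaries inside the basement membrane that they share with endothelial cells, and smooth muscle cells, which ring arterioles and larger vessels. Endothelial cells recruit them through PDGF-B, which acts on PDGFRB on the mural cell, while Notch ligands on the endothelium act on NOTCH3. In the brain, pericytes are known for their part in forming the blood-brain barrier, and arterial smooth muscle for regulating blood flow through a contractile apparatus of smooth muscle actin and myosin. Brain pericytes are further marked by the ATP-sensitive potassium channel formed by KCNJ8 and ABCC9.

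Acta2, which encodes smooth muscle actin, and the channel genes Kcnj8 and Abcc9 stood in opposite order over the mural cells, and the 250 bases before the start of each are printed here for that reason, 5′ to 3′ on the gene's strand, from RefSeq's annotation of GRCm38.p6. They lie at chr19:34255374-34255623 for Acta2, chr6:142702275-142702524 for Abcc9 and chr6:142571615-142571864 for Kcnj8, each on the minus strand. Capitals mark matches on either strand to TGGGAA, the core bound by the Notch effector RBPJ, and to the CArG box of serum response factor with 1 mismatch allowed in its run of A and T.
Acta2: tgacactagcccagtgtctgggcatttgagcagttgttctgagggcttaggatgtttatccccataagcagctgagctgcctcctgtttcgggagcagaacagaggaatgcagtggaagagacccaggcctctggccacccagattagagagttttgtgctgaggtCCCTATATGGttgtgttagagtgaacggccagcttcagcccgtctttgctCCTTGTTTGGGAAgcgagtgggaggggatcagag
Abcc9: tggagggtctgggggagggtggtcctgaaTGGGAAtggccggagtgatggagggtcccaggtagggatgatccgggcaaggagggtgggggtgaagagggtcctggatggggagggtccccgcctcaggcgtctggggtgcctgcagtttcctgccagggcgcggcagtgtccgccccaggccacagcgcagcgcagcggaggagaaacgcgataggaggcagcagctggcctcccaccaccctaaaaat
Kcnj8: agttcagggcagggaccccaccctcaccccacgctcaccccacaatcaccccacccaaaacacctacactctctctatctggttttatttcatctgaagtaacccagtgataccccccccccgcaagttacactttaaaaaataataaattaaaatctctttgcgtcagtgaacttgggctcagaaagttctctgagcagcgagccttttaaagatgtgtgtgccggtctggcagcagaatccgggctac
The Acta2 window held 2 such CArG-like boxes, starting 84 and 34 bases before the gene's start, and a TGGGAA 27 bases before it that overlaps the second box. The Abcc9 window held TGGGAA 221 bases before the start, and the Kcnj8 window neither motif. TGGGAA stood in 21.5% of all 27025 promoter windows of this length, and the CArG box with 1 mismatch in 7.38%. Among the 14 of 18 contractile genes with a window, Acta2, Tpm1 and Smtn held TGGGAA and Acta2 and Myl9 a CArG box with at most 1 mismatch. A match is a description of the letters only.

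The 7 genes of the rule were strongly present in the cells that it chose, which describes the choice and was not tested. Rgs5, a regulator of G protein signalling, had a median of 33 UMIs per mural cell in WT replicate 1 and 38.5 in WT replicate 6, and its level in the summed cells was 3228 and 3980 counts per 1000000 UMIs (CPM). Abcc9 was at 962 and 1190 CPM, Kcnj8 at 480 and 561, Pdgfrb at 581 and 663, Notch3 at 335 and 367, and the proteoglycan gene Cspg4 at 249 and 250. Of the 240 cells, 170 held all 7 genes and 218 at least 10 UMIs of Rgs5. Endothelial cells were chosen by 8 genes of their own and capped at 1 UMI of Rgs5 per cell. They held no UMI of Kcnj8 and at most 4 UMIs in a library of any of the other 6. Vtn, which encodes vitronectin, was not restricted in this way. Fibroblasts of the meninges and vessels were chosen by 7 collagen, matrix and receptor genes. They held Vtn at 959 and 766 CPM, against 1042 and 1325 in mural cells. Pdgfrb stood at 111 and 122 CPM in fibroblasts. Rgs5 stood at 1.56 and 1.26 there, but the fibroblast rule itself capped it at 1 UMI per cell.

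Few cells lay near the thresholds. The 9 members with only 2 or 3 Rgs5 UMIs came from WT replicate 1, and 6 of them lacked Vtn. Just outside, 6 cells of WT replicate 1 and 4 of WT replicate 6 met every condition but held 1 Rgs5 UMI, and 3 and 2 were left out for a UMI of Lum or Dcn. The libraries shared 59 barcodes, none of them a mural cell. A score of likeness to simulated doublets marked 75 of the 240 mural cells (31.2%), against 34.9% and 60.6% of endothelial cells, 47.8% and 33.3% of fibroblasts and 10.2% and 9.38% of all other cells in WT replicates 1 and 6, and the part of doublets in the results was not tested beyond the values given without them.

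**Figure D1:**
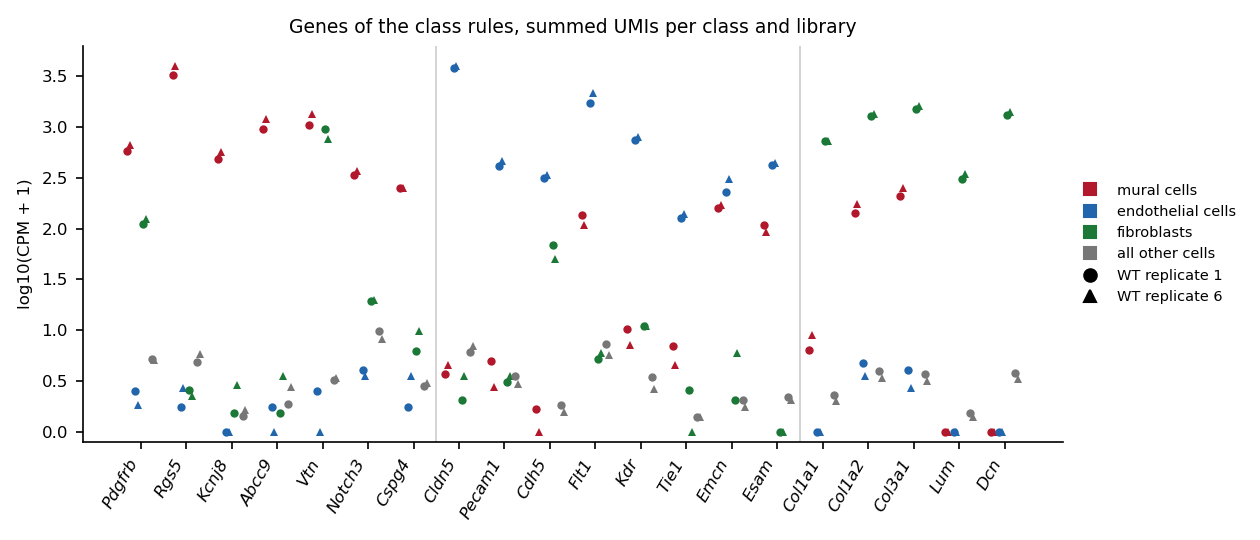
Levels of the genes of the class rules in the UMIs summed per class and library, with log10 of CPM plus 1 on the vertical axis, 1 point per class and library (circles WT replicate 1, triangles WT replicate 6). Mural cells carried the 7 mural genes, and of the endothelial genes Emcn at 158 and 170, Flt1 at 136 and 107 and Esam at 109 and 92.5 CPM, while Cldn5 was at 2.68 and 3.52.

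The label was checked against genes of the neighbouring cell types. Emcn, which encodes the sialomucin endomucin, reached 158 and 170 CPM in mural cells, which was 69.1% and 55.9% of its endothelial level, and was detected in 68.3% and 63.2% of mural cells. Among all other cells, which should lack Emcn, it was detected in 0.576% and 0.442%, at median depths of 6713 and 6511 UMIs per cell against 9438.5 and 8929 in mural cells. Esam, a cell adhesion gene, reached 25.6% and 21.1% of the endothelial level and the VEGF receptor gene Flt1 7.87% and 4.90%. The other endothelial genes did not follow: Cdh5 had 1 and 0 UMIs in all mural cells together, Pecam1 6 and 2, Tie1 9 and 4, Kdr 14 and 7, and Cldn5, which the rule itself capped, 4 and 4. Within WT replicate 1, Emcn thus stood at 69.1% and Cldn5 at 0.0714% of their endothelial levels. Of the fibroblast genes, Col3a1 was at 208 and 249 CPM and Col1a2 at 143 and 173, and each was detected in over 60% of mural cells and in under 2% of all other cells. Lum and Dcn were at 0 by the rule, and Dpt, with 1 UMI in all fibroblasts, could not serve as a check.

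RNA of most other cell types of the brain was present at lower levels. Summed over 5 excitatory neuron markers, mural cells held 594 and 411 CPM, and over 5 radial glia markers 488 and 362, with all 5 of each list called lower than in the other cells. Some single mural cells still held several neuron markers. At least 3 of the 5 excitatory neuron markers were detected in 21 of 126 mural cells of WT replicate 1 and 15 of 114 of WT replicate 6. Among all other cells these were 2960 of 7812 and 3275 of 7913. Microglia and macrophage markers summed to 12.7 and 14.97 CPM. Markers of oligodendrocyte precursors, Pdgfra among them, summed to 41.5 and 0 CPM, against 25.4 and 23.9 in all other cells. Of the 62 such UMIs in mural cells of WT replicate 1, 49 lay in 1 cell. Erythroid markers summed to 1096 and 3325 CPM, and 1 cell of WT replicate 6 held 1666 of its 3776 erythroid UMIs. The part of this RNA in the results was not tested.

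Mural cells were then compared with endothelial cells (157 cells), with fibroblasts (226 cells) and with all other cells (15725 cells, mostly of the neuronal lineages) by edgeR's quasi-likelihood test on UMIs summed per library and class, without the 22 genes of the class rules. Genes expressed together with the rule genes were bound to differ, so that the calls describe the chosen cells. Against endothelial cells 12.8% of 10867 genes tested were called higher in mural cells and 13.4% lower (adjusted p under 0.05). Against fibroblasts the shares were 11.3% and 11.4% of 11453 genes, and against all other cells 18.6% and 20.1% of 17892. Medians over all genes tested were 0.01, 0.02 and -0.16 on the log2 scale. Counts of list genes below are to be read against these shares and medians.

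Most genes known from brain pericytes were higher in mural cells than in each of the other classes. Of 20 pericyte genes tested, 19 were called higher than in endothelial cells (median log2 difference 5.84, or 5.44 with genes at 0 set to their bound), 16 higher and 1 lower than in fibroblasts (3.40), and 20 higher than in all other cells (6.51). The counts were the same without the mural cells that held 10 or more smooth muscle UMIs. This list was chosen with earlier results of these data known, and genes expressed together with the rule genes were bound to differ. The counts thus describe the chosen cells. Atp13a5, a transport ATPase of pericytes, was at 273 and 281 CPM in mural cells, 0 and 1.72 in endothelial cells and 9.90 and 7.54 in fibroblasts, so that the classes did not overlap (log2 difference to fibroblasts 4.91 ± 0.19 SE, edgeR adjusted p = 5.89e-07). The adhesion gene Mcam was at 139 and 187 CPM and had no UMI in fibroblasts, at least 187-fold lower there (adjusted p = 2.89e-06). The connexin gene Gja4 was shared with the endothelium. It stood at 158 and 169 CPM in mural cells and at 89.9 and 170 in endothelial cells, which overlapped (log2 difference 0.30 ± 0.25, adjusted p = 0.435), but at 1.56 and 1.26 in fibroblasts (6.71 ± 0.27, adjusted p = 6.97e-07). The gene called lower than in fibroblasts was Cd63, which encodes a tetraspanin of endosomes, at 407 and 466 against 598 and 717 CPM (-0.65 ± 0.16, adjusted p = 0.0169), and with mural replicate 1 left out the difference no longer passed (adjusted p = 0.0607).

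Higd1b, Ndufa4l2 and Cox4i2, 3 members of the pericyte list that encode mitochondrial proteins, are given here together, a choice made after their values were seen and not a list tested as such. Higd1b was at 1209 and 1274 CPM in mural cells, while endothelial cells held 1 UMI of it in all, a ratio of 3075 with an exact counting interval of 552 to 121499. In fibroblasts Higd1b was at 8.86 and 5.65 CPM (log2 difference 7.32 ± 0.23, edgeR adjusted p = 3.21e-07) and in all other cells at 1.06 and 1.23 (10.05 ± 0.21, adjusted p = 4.18e-08). Ndufa4l2, which encodes a variant subunit of the respiratory chain, was at 740 and 833 CPM in mural cells and at 54.2 and 59.0 in fibroblasts (3.74 ± 0.17, adjusted p = 8.89e-07). Fibroblasts thus held a clear level of Ndufa4l2 but little Higd1b. Cox4i2, the variant of cytochrome oxidase subunit 4 that is known from low oxygen, was at 206 and 257 CPM, against 3.13 and 0.628 in fibroblasts (6.75 ± 0.34, adjusted p = 1.36e-06) and 1.37 and 1.21 in all other cells. Epas1, which encodes the hypoxia-inducible factor HIF-2 alpha, was at 247 and 292 CPM in mural cells and at 286 and 323 in endothelial cells, a difference that did not pass the test (-0.22 ± 0.17, adjusted p = 0.419), and at 10.4 and 8.16 in fibroblasts (4.78 ± 0.21, adjusted p = 7.53e-07). The vascular classes thus both held Epas1, and of the pair only mural cells held the variant mitochondrial genes above a few UMIs.

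Contractile genes were unevenly spread over the mural cells. Acta2, Tagln, Myh11 and Cnn1, which encode smooth muscle actin, transgelin, smooth muscle myosin and calponin, summed to 0 or 1 UMI in 209 of the 240 cells, to 2 to 9 in 7 cells and to 10 or more in 24. The 24 cells were 13 of 126 in WT replicate 1 (10.3%, Wilson interval 6.13 to 16.9%) and 11 of 114 in WT replicate 6 (9.65%, 5.47 to 16.5%). Their summed smooth muscle UMIs ran from 13 to 496 with a median of 73 in WT replicate 1, and from 15 to 356 with a median of 46 in WT replicate 6. The cut at 10 UMIs was set after the values were seen and marks a range, not a cell type, and genes inside and outside it are given as values without a test. Doublet marks fell on 6 of the 13 and 6 of the 11 cells, against 34 of 113 and 29 of 103 of the remaining mural cells.

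**Figure D2:**
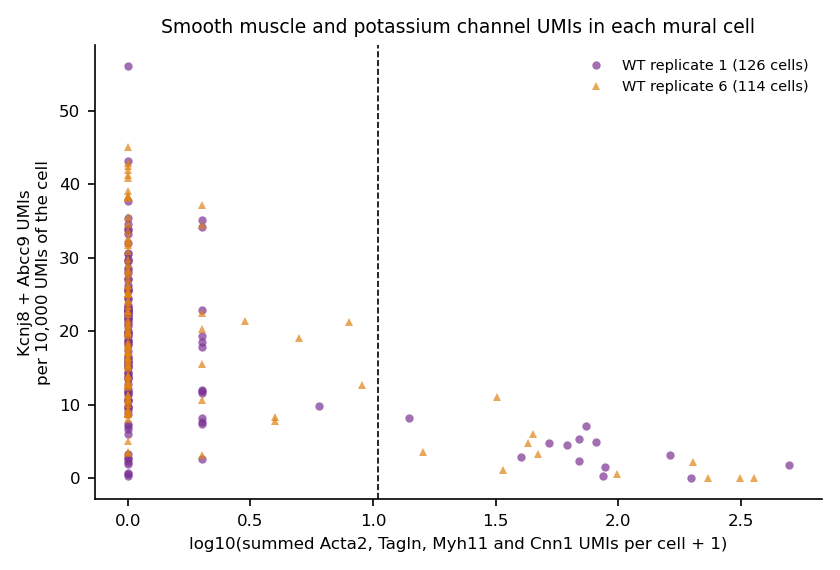
Each point is 1 mural cell, with log10 of its summed Acta2, Tagln, Myh11 and Cnn1 UMIs plus 1 on the horizontal axis and its Kcnj8 and Abcc9 UMIs per 10000 UMIs on the vertical axis; the dashed line marks 10 smooth muscle UMIs. The 24 cells right of the line lie between 0 and 11.1 channel UMIs per 10000, while the 216 to the left spread from 0.323 to 56.1.

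Cells at the contractile end held less Kcnj8 and Abcc9 RNA. Both genes belong to the rule, so that a cell without them had to hold 4 of the other 5 genes, and their levels here are a description of the cells chosen. Kcnj8 and Abcc9 together had a median of 3.24 and 2.18 UMIs per 10000 in the 13 and 11 contractile cells and of 18.7 and 19.6 in the remaining 113 and 103. Summed over cells, Kcnj8 was at 126 and 138 CPM in the contractile cells and 534 and 609 in the rest, and Abcc9 at 241 and 190 against 1073 and 1303. Rgs5, which the rule required, did not separate them, with medians of 37.2 and 26.8 per 10000 in the contractile cells and 35.0 and 41.7 in the rest. Vtn was likewise close, at 1034 and 1393 CPM in the contractile cells and 1043 and 1318 in the rest. Notch3 was at 472 and 441 against 314 and 359 CPM.

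The contractile cells carried nearly all UMIs of Acta2, which helped to set the cut, and of Actg2 and Myocd. Acta2 was at 4614 and 7769 CPM in them and at 2.32 and 11.8 in the rest. Actg2, a further smooth muscle actin gene, was at 437 and 389 CPM and had no UMI in the rest, which puts it at least 323-fold higher. Myocd, the coactivator of serum response factor in smooth muscle, was at 95.4 and 164 against 0.773 and 0.980 CPM, which is 1 UMI in each library of the rest. Mgp, an inhibitor of calcification, was at 1677 and 1583 against 56.4 and 46.1, and the tropomyosin gene Tpm2 at 1160 and 1272 against 69.6 and 103. Part of their UMIs lay in the rest. Mgp had 334 and 183 UMIs in the contractile cells and 73 and 47 in the rest, and Tpm2 231 and 147 against 90 and 105. Other contractile genes were present in both ranges: Cald1, which encodes caldesmon, was at 3550 and 4836 against 2793 and 3129 CPM, Des, the intermediate filament gene, at 115 and 104 against 57.2 and 89.2, and Myl9, a myosin light chain gene, at 1406 and 1929 against 359 and 486. Over the 18 genes of the list, 14 were higher in the contractile cells in both libraries and 1, Smtn, lower. Acta2, Tagln, Myh11 and Cnn1 are among the 14 and set the cut, so that their order was fixed by it. In the contractile cells Pln, also among the 14, had 1 UMI in each library, and Smtn 2. No share over all genes was computed for this split, so the count describes the list only. Fibroblast genes were also higher in these cells, with Col1a2 at 296 and 424 against 119 and 145 CPM and Col3a1 at 306 and 476 against 192 and 224. Their median of summed fibroblast marker UMIs was 8 and 9, against 2 and 3 in mural cells with no smooth muscle UMI, and the part of fibroblast RNA in these values was not tested.

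Of the 20 pericyte genes, 12 were lower in the contractile cells than in the rest in both libraries, 4 were higher in both and 4 differed in direction between the libraries. No share over all genes was computed for this split, so these counts by direction describe the list only. Some directions rest on few UMIs in the contractile cells, such as 3 and 2 of Art3 and 2 and 1 of Slc6a20a. Atp13a5 had no UMI in the contractile cells and 315 and 313 CPM in the rest, at least 33.0-fold higher in the rest. Higd1b was at 256 and 303 in the contractile cells against 1356 and 1384, Rgs4 at 45.2 and 104 against 245 and 286, and the transporter gene Slc6a20a at 10.0 and 8.65 against 71.9 and 93.1. The 4 genes higher in the contractile cells were Gja4, Mcam, Aspn and Ndufa4l2. Gja4 was at 412 and 355 against 119 and 148 CPM and Mcam at 191 and 363 against 131 and 167. Ndufa4l2 was at 808 and 865 CPM in the contractile cells and 730 and 829 in the rest. Cox4i2 was at 156 and 182 against 214 and 266. Of the 3 genes of mitochondrial proteins, Higd1b was thus the most uneven.

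**Figure D3:**
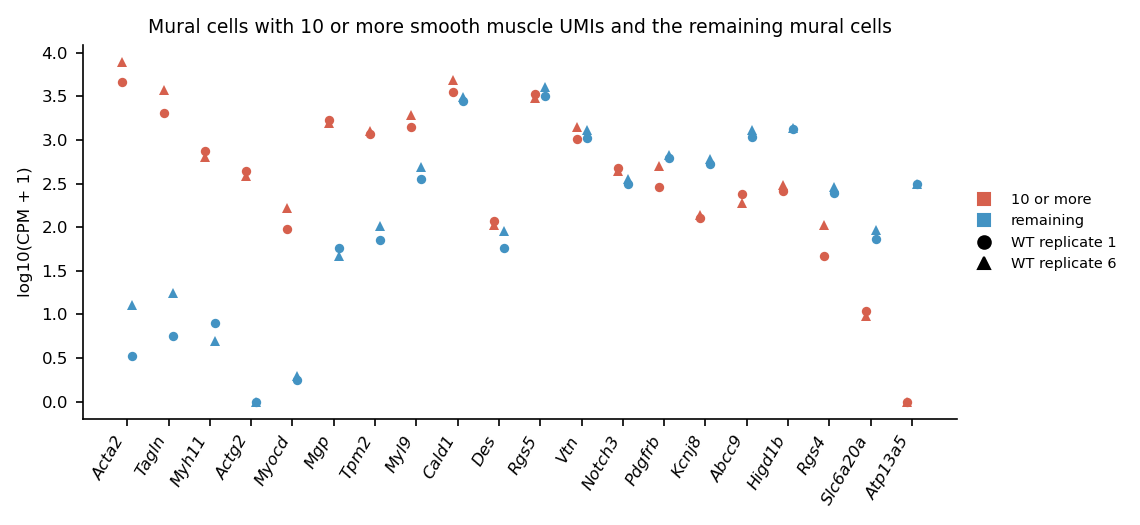
Levels of muscle and pericyte genes in the summed mural cells with 10 or more smooth muscle UMIs and in the remaining mural cells, with log10 of CPM plus 1 on the vertical axis and 1 point per range and library (circles WT replicate 1, triangles WT replicate 6). Acta2 stood at 4614 and 7769 CPM against 2.32 and 11.8, Rgs5 at 3374 and 3002 against 3205 and 4091, and Atp13a5 at 0 against 315 and 313.

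Over all 240 cells, most contractile genes were higher in mural cells than in each other class, and fewer were tested and called without the 24 cells. Of 18 genes, 15 could be tested against endothelial cells, 13 higher and 2 lower (median log2 difference 6.96, or 5.004 with genes at 0 set to their bound). Against fibroblasts 11 of 15 were higher and 1 lower (2.71), and against all other cells 15 of 17 were higher (5.48). Without the 24 cells the counts were 6 higher and 2 lower of 9 tested against endothelial cells, 5 higher and 4 lower of 11 against fibroblasts, and 8 higher of 16 against all other cells. Acta2, Tagln, Myh11 and Cnn1 set the cut, so that the loss of their calls was fixed by it. Acta2 had no endothelial UMI and was at 618 and 801 CPM in mural cells, at least 577-fold higher (edgeR adjusted p = 5.42e-07), and at 4.17 and 5.02 in fibroblasts (log2 difference 7.20 ± 0.26, adjusted p = 4.94e-07). Against all other cells, at 11.3 and 0.444 CPM, the Acta2 difference was 6.89 ± 1.13 (adjusted p = 0.00164), and without the 24 cells it was 0.12 (adjusted p = 0.973). Acta2 helped to choose the 24 cells, so that this drop was fixed by the cut. The 6 cells of WT replicate 1 in no class rule that held 10 or more smooth muscle UMIs stayed among all other cells. Cald1 was at 2894 and 3303 CPM, against 74.8 and 114 in endothelial cells (32.1-fold, adjusted p = 6.57e-07) and 506 and 578 in fibroblasts (2.46 ± 0.16, adjusted p = 5.19e-06). Des was at 65.0 and 90.7 CPM with no endothelial UMI, at least 63.0-fold higher (adjusted p = 1.18e-05). Cald1 and Des, along with Myl9, Mylk and Ppp1r14a, were called higher against all 3 classes without the 24 cells too. Smtn, which encodes smoothelin, went the other way at 18.8 and 25.5 against 73.3 and 86.9 CPM in endothelial cells (-1.91 ± 0.24, adjusted p = 0.000188), and Synpo2, an actin-bundling gene, was at 2.68 and 6.16 against 30.8 and 18.8 in fibroblasts (-2.61 ± 0.46, adjusted p = 0.00299).

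Most transcription factors known from mural cells and their precursors were higher in mural than in endothelial cells, while against fibroblasts they went in both directions. Of 18 factors, 9 of 12 tested were called higher than in endothelial cells (median log2 difference 3.85), 6 higher and 4 lower of 14 than in fibroblasts (-0.25), and 14 higher of 16 than in all other cells (5.33). Without the 24 contractile cells, 5 were higher and 7 lower than in fibroblasts. Tbx2, a T-box factor, was at 188 and 217 CPM with no endothelial UMI, at least 166-fold higher (edgeR adjusted p = 8.06e-07), and at 6.25 and 8.16 in fibroblasts (log2 difference 4.75 ± 0.22, adjusted p = 1.01e-06). Tbx18, a T-box factor used as a lineage marker of mural cells, was at 106 and 151 CPM but at 279 and 327 in fibroblasts (-1.30 ± 0.19, adjusted p = 0.00110). The T-box factors thus differed in which class held more. Foxd1, a forkhead factor, was at 117 and 144 CPM with no endothelial UMI, at least 107-fold higher (adjusted p = 2.07e-06). Zic1 was at 262 and 269 CPM against 4.53 and 1.72 in endothelial cells (6.28 ± 0.29, adjusted p = 5.00e-07) and at 286 and 297 in fibroblasts. Ebf1 was at 1477 and 1508 CPM, above 542 and 563 in endothelial cells (1.39 ± 0.17, adjusted p = 0.000154) and 113 and 78.5 in fibroblasts (3.90 ± 0.20, adjusted p = 1.49e-06). Foxf2, a forkhead factor needed for brain pericytes, was at 49.6 and 58.1 CPM against 10.4 and 7.54 in fibroblasts (2.49 ± 0.27, adjusted p = 0.000139). In endothelial cells Foxf2 was at 75.5 and 68.0 CPM, above both mural values (-0.47 ± 0.19, adjusted p = 0.113, and 0.0430 with the library as a replicate block).

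The PDGF ligand genes differed in the class that held most of them, while the receptor gene Pdgfrb belongs to the rule and was not tested. Pdgfb was at 164 and 187 CPM in endothelial cells and 4.69 and 5.28 in mural cells (log2 difference -5.16 ± 0.25, edgeR adjusted p = 5.42e-07). Pdgfd, a further ligand of PDGFRB, was at 105 and 142 in endothelial cells and at 3 UMIs in all mural cells, a ratio of 107 with a counting interval of 36.3 to 523 (adjusted p = 1.41e-06). Pdgfa, the ligand of PDGFRA, was the ligand gene called higher in mural cells, at 44.9 and 49.3 against 5.29 and 8.61 CPM (2.72 ± 0.33, adjusted p = 0.000159). It was also above fibroblasts, at 20.8 and 20.7 (1.12 ± 0.22, adjusted p = 0.00490), a call lost with DESeq2 (adjusted p = 0.0629) and without the 24 contractile cells (adjusted p = 0.269). Its receptor gene Pdgfra, which chose the fibroblasts and was not tested, was at 218 and 210 CPM in them and at 12.1 and 0 in mural cells. Whether its 18 UMIs in mural cells of WT replicate 1 lay in few cells was not tested. Over the list, 1 of 4 genes tested was higher and 2 lower than in endothelial cells.

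Ligand genes and target genes of the Notch pathway each went in both directions. The ligand gene Dll4 was at 53.6 and 41.3 CPM in endothelial cells and 5.36 and 2.64 in mural cells (-3.53 ± 0.38, adjusted p = 7.56e-05), and Jag2 at 74.8 and 65.4 against 4.02 and 4.40 (-4.08 ± 0.31, adjusted p = 6.47e-06). The third ligand gene, Jag1, was higher in mural cells, at 67.7 and 98.6 against 52.9 and 39.6 CPM in endothelial cells (0.78 ± 0.25, adjusted p = 0.0441). This call was lost with DESeq2 (adjusted p = 0.203), without likely doublets (0.248), after thinning (0.0901), without the 24 contractile cells (0.133) and without mural replicate 6 (0.193). Among the targets, Heyl was at 149 and 141 in mural cells with 1 UMI in endothelial cells, a ratio of 362 with a counting interval of 64.6 to 14342, and at 18.2 and 21.4 in fibroblasts (2.82 ± 0.18, adjusted p = 4.98e-06). Hey2, a related repressor, was at 58.3 and 62.5 CPM against 3 endothelial UMIs, a ratio of 49.8 (16.7 to 244). Hey1, of the same family, was lower in mural cells, at 2.68 and 5.28 against 24.9 and 41.3 in endothelial cells (-3.11 ± 0.46, adjusted p = 0.000583). Nrarp, a target that dampens Notch signalling, was at 101 and 114 CPM, against 47.6 and 55.1 in endothelial cells (1.02 ± 0.18, adjusted p = 0.00216) and 1.56 and 1.26 in fibroblasts (6.10 ± 0.30, adjusted p = 1.33e-06). Notch2, a receptor gene, was lower in mural cells than in fibroblasts, at 26.1 and 37.0 against 148 and 112 (-2.12 ± 0.23, adjusted p = 0.000132). In all, 6 of 13 pathway genes tested were higher and 4 lower than in endothelial cells, and 7 of 11 higher and 1 lower than in fibroblasts.

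**Figure D4:**
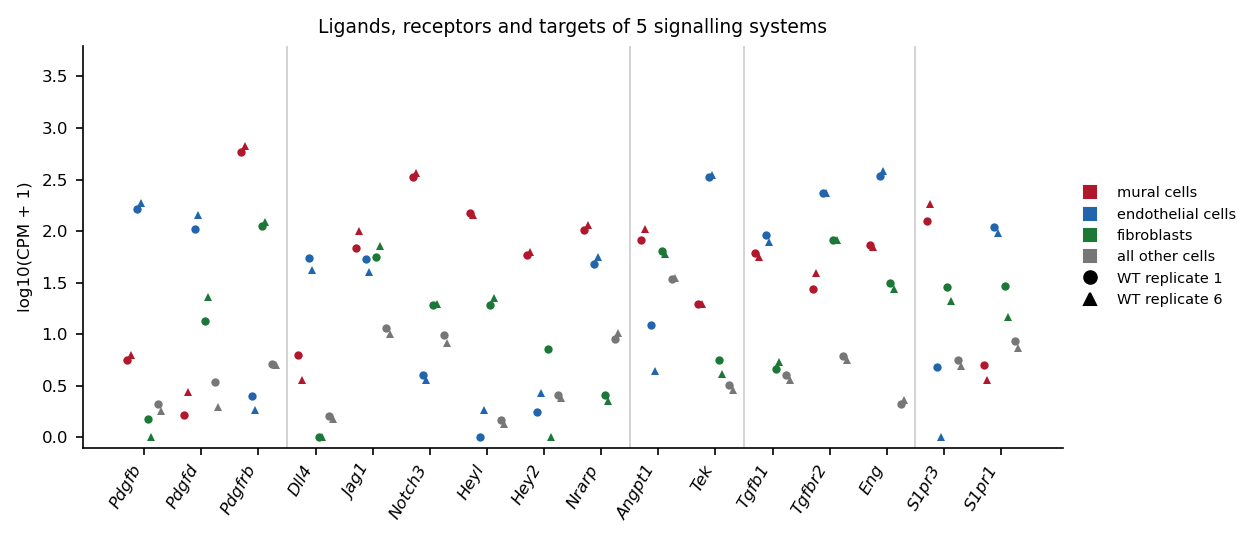
Levels of ligand, receptor and target genes of the PDGF, Notch, angiopoietin, TGF-beta and S1P systems per class and library, with log10 of CPM plus 1 on the vertical axis (circles WT replicate 1, triangles WT replicate 6; grey lines part the systems). Pdgfb stood at 164 and 187 CPM in endothelial and 4.69 and 5.28 in mural cells, Angpt1 at 80.4 and 104 in mural and 11.3 and 3.44 in endothelial cells.

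The angiopoietin ligand gene Angpt1 was higher in mural than in endothelial cells, and the receptor gene Tek lower. Angpt1, which encodes the ligand that steadies vessels, was at 80.4 and 104 CPM in mural cells and 11.3 and 3.44 in endothelial cells (3.53 ± 0.37, edgeR adjusted p = 6.32e-05), and at 33.5 and 34.1 in all other cells (1.40 ± 0.14, adjusted p = 8.48e-05). Fibroblasts held it at 63.1 and 59.0 CPM, a difference that did not pass (0.53 ± 0.18, adjusted p = 0.0701) but did without likely doublets (adjusted p = 0.00847), without TMM scaling (0.0453) and without mural replicate 1 (0.0225). Its receptor gene Tek was at 332 and 346 in endothelial cells and 18.8 and 18.5 in mural cells (-4.22 ± 0.19, adjusted p = 4.34e-07). Ptprb, the phosphatase that acts on this receptor, was at 473 and 506 against 12.7 and 0.881 (-6.06 ± 0.44, adjusted p = 5.00e-06), and its mural values lay far apart.

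In the TGF-beta system, the receptor genes Tgfbr2 and Acvrl1 and the co-receptor gene Eng were lower in mural than in endothelial cells, while Tgfbr1 and Tgfbr3 were not called. Tgfbr2 was at 26.8 and 38.7 CPM against 234 and 232 (-2.89 ± 0.21, adjusted p = 4.56e-06), and the co-receptor gene Eng at 72.3 and 69.6 against 339 and 378 (-2.38 ± 0.17, adjusted p = 4.03e-06). Tgfbr1 was at 80.4 and 68.7 against 86.1 and 71.4 (-0.12 ± 0.19, adjusted p = 0.692) and Tgfbr3 at 63.6 and 71.3 against 67.2 and 55.1 (0.09 ± 0.20, adjusted p = 0.799). Tgfb1, a ligand gene, was at 61.0 and 54.6 in mural cells against 3.65 and 4.40 in fibroblasts (3.78 ± 0.29, adjusted p = 1.50e-05). It was lower than in endothelial cells, at 90.7 and 78.3 (-0.59 ± 0.18, adjusted p = 0.0406), a call lost without likely doublets (adjusted p = 0.454), with DESeq2 (0.363) and without mural replicate 1 (0.0685) or 6 (0.111), among others. Over 15 genes, 2 were higher and 7 lower than in endothelial cells, and 7 higher and 4 lower than in fibroblasts. Without the 24 contractile cells, 4 were higher and 5 lower than in fibroblasts of 13 tested. The receptors of sphingosine 1-phosphate were divided between the vascular classes. S1pr3 was at 124 and 183 CPM in mural cells, 3.78 and 0 in endothelial cells (6.14 ± 0.50, adjusted p = 1.11e-05) and 27.6 and 20.1 in fibroblasts (2.60 ± 0.25, adjusted p = 6.40e-05). S1pr1 was at 110 and 94.7 in endothelial cells and 4.02 and 2.64 in mural cells (-4.91 ± 0.30, adjusted p = 1.89e-06).

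Basement membrane genes were high in mural cells, with a choice of chains that differed from both neighbours. Of 22 genes, 10 of 21 tested were higher and 5 lower than in endothelial cells (median log2 difference 0.63), 10 higher and 7 lower of 21 than in fibroblasts (0.38), and 20 of 22 higher than in all other cells (4.06). Col4a1, a chain of collagen IV, was at 2834 and 3145 CPM, against 1088 and 1414 in endothelial cells (1.22 ± 0.19, edgeR adjusted p = 0.000904) and 1439 and 1406 in fibroblasts (1.01 ± 0.14, adjusted p = 0.000709). Itga1, the integrin chain that binds collagen IV, was at 1012 and 1212 against 233 and 248 in endothelial cells (2.17 ± 0.19, adjusted p = 1.45e-05) and 103 and 93.0 in fibroblasts (3.44 ± 0.17, adjusted p = 1.40e-06). A collagen IV chain and its integrin were thus above both neighbours. Among the laminins, Lama2 was at 122 and 124 CPM against 3 endothelial UMIs, a ratio of 102 (34.5 to 496), but below fibroblasts at 327 and 338 (-1.49 ± 0.14, adjusted p = 6.40e-05). Lama1 was at 42.2 and 60.8 against 451 and 447 in fibroblasts (-3.20 ± 0.19, adjusted p = 3.73e-06), and Lamc3 at 129 and 167 against 3.02 and 0 in endothelial cells (6.40 ± 0.46, adjusted p = 4.87e-06). Sparc, a collagen-binding protein gene, was lower than in either neighbour, at 990 and 1047 against 2155 and 2341 in endothelial cells (-1.18 ± 0.17, adjusted p = 0.000529) and 1941 and 1941 in fibroblasts (-0.99 ± 0.14, adjusted p = 0.000771). Hspg2, which encodes perlecan, was at 31.5 and 25.5 against 135 and 140 in endothelial cells (-2.30 ± 0.19, adjusted p = 1.12e-05).

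Fibrillar matrix genes placed mural cells between the endothelium and the fibroblasts. Of 18 genes, 8 of 11 tested were higher and 1 lower than in endothelial cells (2.26), and 1 higher and 10 lower of 13 than in fibroblasts (-1.73). Col6a1, a collagen VI chain, had 0.670 and 3.52 CPM in mural cells against 162 and 181 in fibroblasts (-6.48 ± 0.34, adjusted p = 1.74e-06), while Col6a3 was at 58.3 and 64.3 CPM against 2 endothelial UMIs, a ratio of 75.6 (20.6 to 630). Bgn, the proteoglycan biglycan, was at 362 and 431 against 78.6 and 81.8 in endothelial cells (2.26 ± 0.18, adjusted p = 9.44e-06) and 2.30 and 1.09 in all other cells (7.83 ± 0.33, adjusted p = 6.43e-07). Postn was at 48.2 and 57.2 against 271 and 315 in fibroblasts (-2.54 ± 0.17, adjusted p = 6.79e-06). The gene above fibroblasts was Mgp, at 273 and 203 against 48.5 and 66.6 (2.001 ± 0.20, adjusted p = 9.39e-05), and without the 24 contractile cells its difference was -0.22 (adjusted p = 0.517).

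Genes of secreted factors differed in both directions. Of 26, 8 of 18 tested were higher and 8 lower than in endothelial cells (median log2 difference -0.13), 3 higher and 17 lower of 22 than in fibroblasts (-2.52), and 11 higher and 6 lower of 25 than in all other cells (0.16). Igf2, an embryonic growth factor gene, was at 1075 and 1508 CPM against 68.0 and 17.2 in endothelial cells (4.85 ± 0.48, edgeR adjusted p = 3.79e-05) and 5.74 and 4.38 in all other cells (7.96 ± 0.27, adjusted p = 2.00e-07). Fibroblasts held Igf2 at 1480 and 1692 CPM, a range that overlapped that of mural cells (-0.35 ± 0.19, adjusted p = 0.218, 0.0267 with the library as a replicate block and 0.0153 without mural replicate 6). Il34, which encodes a ligand of the CSF1 receptor of microglia, was at 120 and 128 against 3.02 and 2.58 in endothelial cells (5.36 ± 0.29, adjusted p = 8.20e-07), 70.4 and 74.7 in fibroblasts (0.71 ± 0.15, adjusted p = 0.00753) and 1.27 and 1.13 in all other cells (6.65 ± 0.14, adjusted p = 4.18e-08). Mural cells thus held Il34 above each class, by the smallest margin over fibroblasts, and that margin did not pass with DESeq2 (adjusted p = 0.0863) or after thinning each cell to 1500 UMIs (edgeR adjusted p = 0.110). Cxcl12, the chemokine that guides interneurons and progenitors in the cortex, was low at 9.38 and 13.2 CPM, against 324 and 253 in endothelial cells (-4.74 ± 0.25, adjusted p = 8.29e-07) and 1108 and 1183 in fibroblasts (-6.74 ± 0.22, adjusted p = 3.53e-07). All other cells held Cxcl12 at 12.5 and 13.2 CPM, and that difference was not called, so the low level was not particular to mural cells. Ptn, a heparin-binding growth factor gene, was at 1927 and 1892, above 140 and 240 in endothelial cells (3.29 ± 0.25, adjusted p = 6.67e-06) and below 6118 and 6768 in fibroblasts (-1.81 ± 0.14, adjusted p = 1.56e-05). Igfbp7, an insulin-like growth factor binding protein gene, was at 905 and 1087 against 9.90 and 15.1 in fibroblasts (6.27 ± 0.24, adjusted p = 5.52e-07), but below 1531 and 1560 in endothelial cells (-0.68 ± 0.18, adjusted p = 0.0191, and 0.0589 without mural replicate 1). Among bone morphogenetic proteins, Bmp5 was at 66.3 and 79.3 with no endothelial UMI, at least 59.6-fold higher (adjusted p = 7.23e-06), whereas Bmp6 had 2 UMIs in all mural cells against 641 and 561 CPM in fibroblasts, a ratio of 794 (220 to 6563).

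A list of endothelial genes, most of them for transporters and junctions of the blood-brain barrier, set mural cells apart from the endothelium. All 12 genes tested of 14 were lower than in endothelial cells (median log2 difference -5.18). Among the 12 were Cav1 and Plvap, which are neither transporter nor junction genes, so the count is not one of barrier genes alone. Abcb1a, which encodes the efflux pump P-glycoprotein, had no UMI in mural cells and 166 and 197 CPM in endothelial cells, at least 158-fold higher there (edgeR adjusted p = 7.50e-07), and the junction gene Ocln was at 0 against 81.6 and 94.7, at least 76.8-fold (adjusted p = 2.93e-06). The glucose transporter gene Slc2a1 was at 16.1 and 24.7 against 694 and 853 (-5.31 ± 0.25, adjusted p = 5.43e-07). Other genes of the list were lower yet not absent. Abcg2, a further efflux pump gene, was at 73.0 and 85.4 against 262 and 323 (-1.93 ± 0.18, adjusted p = 2.70e-05), and Tjp1, which encodes ZO-1, at 251 and 278 against 781 and 751 (-1.58 ± 0.17, adjusted p = 7.56e-05).

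RNA of dividing cells was detected in part of the mural cells. After each cell was thinned to 1500 UMIs, Top2a or Mki67, genes of dividing cells, were detected in 14.3% of mural cells of WT replicate 1 (Wilson interval 9.23 to 21.5%) and 15.8% of WT replicate 6 (10.2 to 23.6%), and before thinning in 27.8% and 25.4%. Excitatory neurons, which have left the cycle, were taken as those of all other cells with at least 3 of the 5 excitatory neuron markers. After thinning, 5.44% and 4.21% of these neurons held either gene. Their median depth was 9502 and 8456 UMIs, that of mural cells 9438.5 and 8929. Endothelial cells, at 10.5% and 14.1%, and fibroblasts, at 16.5% and 10.8%, had intervals that overlapped those of mural cells. So did all other cells, at 11.5% (10.8 to 12.2%) and 9.69% (9.06 to 10.4%). Of 22 genes of the G2 and M phases, 4 were called higher than in endothelial cells, 10 with the library as a replicate block and 1 with DESeq2. Without the 24 contractile cells none was called by edgeR, with 4 higher at an unadjusted p under 0.05. Against fibroblasts neither edgeR nor DESeq2 called any, with 1 higher and 1 lower at an unadjusted p under 0.05. Cenpf, a kinetochore gene, was at 117 and 170 CPM against 47.6 and 81.8 in endothelial cells (1.11 ± 0.27, edgeR adjusted p = 0.0114), and without the 24 cells this difference did not pass either (adjusted p = 0.149). Against all other cells 7 of the 22 were higher, among them Bub1, a spindle checkpoint gene, at 40.2 and 51.1 against 19.7 and 19.6 CPM (1.17 ± 0.15, adjusted p = 0.000463). Of 22 S phase genes none was called against endothelial cells by edgeR or DESeq2 and 0 reached an unadjusted p under 0.05, 2 were lower than in fibroblasts by edgeR but 0 by DESeq2 and 0 without the 24 contractile cells, and 4 were higher and 3 lower than in all other cells. The 4 higher of 22 are a share near the 18.6% of all genes tested.

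**Figure D5:**
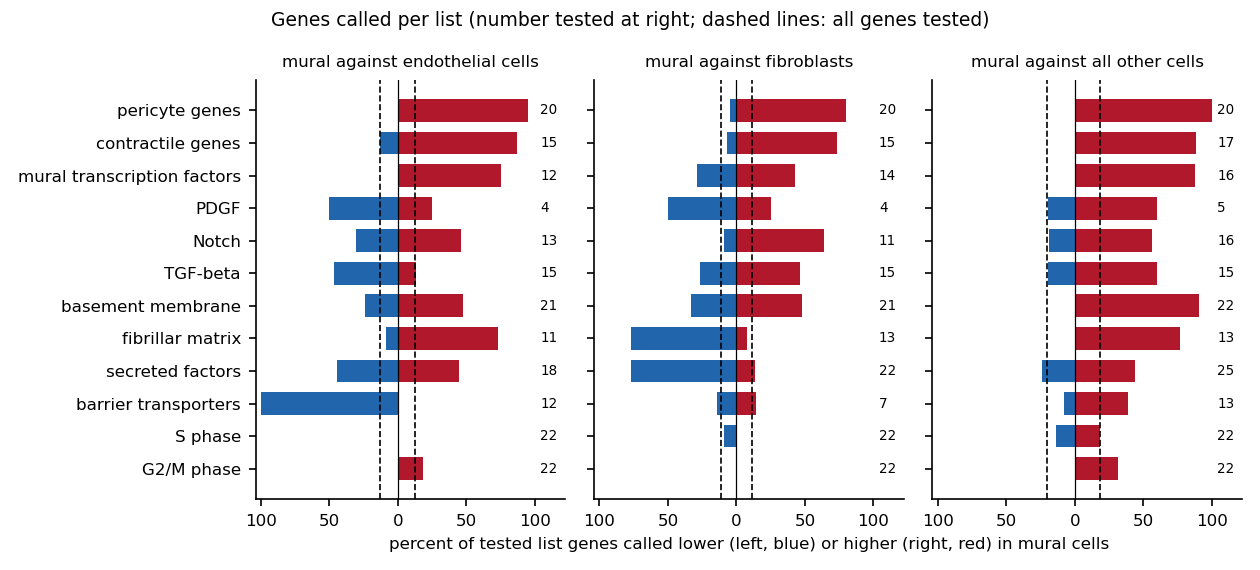
Percent of the tested genes of each list called higher (right, red) or lower (left, blue) in mural cells against each class, with the number tested at the right and the share over all genes tested as dashed lines. Against endothelial cells 19 of 20 pericyte genes were higher and 12 of 12 genes of the barrier list lower. Against fibroblasts 10 of 13 fibrillar matrix genes were lower. The lists were chosen with earlier results of these data known.

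Beyond the lists, the genes with the largest differences were named by a fixed rule on size. Tested in all 3 comparisons were 10466 genes. With the same direction and at least 20 UMIs in both libraries as further conditions, 67 genes were called lower against all 3 classes and 481 higher. Mmp9, a gelatinase gene, led them, at 321 and 379 CPM with no UMI in endothelial cells, at least 287-fold higher (edgeR adjusted p = 5.42e-07), none in fibroblasts, at least 405-fold higher (adjusted p = 7.36e-07), and 0.397 and 0.855 CPM in all other cells (9.09 ± 0.31, adjusted p = 1.91e-07). Cpa1, a carboxypeptidase gene known from the pancreas, was at 43.5 and 46.7 CPM and had 3 UMIs in all 15725 other cells, a ratio of 1780 (595 to 8757). Slc38a11, a putative amino acid transporter gene, was at 150 and 206 with no endothelial UMI, at least 144-fold higher (adjusted p = 2.20e-06). The remaining genes of the leading 15 were Gm13861, Higd1b, Acta2, Cox4i2, Map3k7cl, Adap2os, Adap2, Dhx58os, Rgs4, Des, Adamts16 and Rem1, with mural levels from 14.1 CPM (Rem1, WT replicate 1) to 1274 (Higd1b, WT replicate 6). Adap2os and Dhx58os are named as opposite-strand transcripts of their neighbours, and whether strand was used in counting is not given in the sources used here.

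Against endothelial cells, the imprinted gene Dlk1 was at 366 and 516 CPM with no endothelial UMI, at least 357-fold higher (adjusted p = 8.81e-07), while Aplnr, the apelin receptor gene of the endothelium, was at 173 and 162 there with none in mural cells, at least 147-fold higher in endothelial cells (adjusted p = 7.52e-07), and Sox18, an endothelial transcription factor gene, at 98.2 and 129 with none in mural cells. Against fibroblasts, Chp2 was at 77.0 and 113 CPM and the carbonic anhydrase gene Car4 at 56.3 and 70.4, with no fibroblast UMI of either, at least 108-fold (adjusted p = 1.19e-05) and 73.0-fold higher (adjusted p = 1.33e-05). Genes of fibroblasts that had no UMI in mural cells were Aldh1a2, the enzyme that makes retinoic acid, at 262 and 230 CPM in fibroblasts (at least 217-fold, adjusted p = 1.01e-06), Bnc2 at 215 and 265 (at least 208-fold, adjusted p = 1.33e-06) and Bmp7 at 241 and 229 (at least 206-fold, adjusted p = 8.83e-07). Against all other cells, Carmn, a long noncoding RNA of smooth muscle, was at 256 and 252 CPM against 0.496 and 0.359 (9.17 ± 0.17, edgeR adjusted p = 4.18e-08), Fam162b at 112 and 140 against 0.116 and 0.154 (9.79 ± 0.21, adjusted p = 4.18e-08) and the thromboxane receptor gene Tbxa2r at 119 and 129 against 0.149 and 0.291 (9.08 ± 0.21, adjusted p = 4.28e-08). Pf4 and C1qc, genes of macrophages and microglia, had no UMI in mural cells, at least 46.7-fold (adjusted p = 3.24e-05) and 25.8-fold lower (adjusted p = 2.53e-05), and neither passed once likely doublets were left out, with fitted log2 differences of -10.22 ± 4.31 (adjusted p = 0.0929) and -11.01 ± 4.51 (0.0854) that depend on the prior count.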

How the data were processed

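Dissociated cells of the dorsal telencephalon of 2 WT samples at E16.5 were profiled, per the labels, with the 10x Genomics 3' single-cell chemistry after papain digestion. The authors deposited UMI counts that were not normalized, made with Cell Ranger 7.0.0 on mm10, per the submitters' processing notes. Whether intronic reads were counted is not given in the sources used here. The libraries held 14136 and 13046 barcodes with 74930397 and 68964234 UMIs, of which 8139 and 8209 cells passed the filters on depth and mitochondrial share. Mural cells summed to 1492779 and 1135586 UMIs, so that a count of 0 allows up to 2.01 and 2.64 CPM (3 counts). Intervals and floors cover counting error only.

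Endothelial cells held at least 4 of 8 genes (Cldn5, Pecam1, Cdh5, Flt1, Kdr, Tie1, Emcn, Esam) with at least 2 UMIs of Cldn5. They held at most 1 UMI of Rgs5 and none of Lum and Dcn. Fibroblasts held at least 4 of 7 genes (Col1a1, Col1a2, Col3a1, Lum, Dcn, Pdgfra, Dpt) with at least 2 UMIs of Lum and Dcn together. They held at most 1 UMI of Cldn5 and at most 1 of Rgs5. Counts were summed per library and class and tested two-sided with edgeR 4.0.16 (glmQLFit, TMM, filterByExpr, Benjamini-Hochberg over all genes tested; R 4.3.3) after the test had been tried on simulated data. The study states no test for this comparison. Genes at 0 in one class are given as bounds against 3 counts over the group.

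Sums of 1 library come from the same sample, and their deviations from the class means correlated at 0.160, 0.151 and 0.143 in the comparisons with endothelial cells, fibroblasts and all other cells, so the numbers pair the sums, and the library was added as a replicate block in an alternative fit. The blocked value is given where it changes a count by over 1.5 times. Further alternatives were DESeq2 1.42.0, scaling without TMM, no filter on low counts, all classes in 1 fit, stricter rules and filters, cells thinned to 1500 UMIs, likely doublets left out and each mural sum left out. Likely doublets were the top scores of a Scrublet-type comparison with simulated doublets, at 0.8% per 1000 cells. Leaving out cells with 10 or more smooth muscle UMIs, and keeping cells with at least 10 Rgs5 UMIs, were added after the data were seen.

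Named were the genes of the rules, the members of the gene lists, the 10 largest differences each way per comparison among genes called, with at least 20 UMIs and the same direction in both libraries, and the 15 genes highest against all 3 classes. Members and lists were chosen with earlier results of these data known. Promoter windows came from RefSeq (GRCm38.p6) by symbol, with 14 of 18 contractile genes matched.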

Additional observations from a re-analysis of the deposited data

Results flagged for a closer look

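Cells that met the gene conditions were also found among barcodes left out by the filters. In WT replicate 1, 11 of 5997 barcodes outside the filters met the gene conditions (0.183%, Wilson interval 0.102 to 0.328%), and in WT replicate 6 12 of 4837 (0.248%, 0.142 to 0.433%), with 9 and 11 of them at or over 10% mitochondrial UMIs. These values stand above the limit that a count of 0 allows, 0.05003% and 0.0620%.

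In WT replicate 1, 6 cells that met no class rule held 10 or more UMIs of Acta2, Tagln, Myh11 and Cnn1, and WT replicate 6 had none among its 7913 such cells. The 6 cells held 23 to 340 smooth muscle UMIs each, 1067 in all, together with 4 UMIs of Rgs5, 9 of Pdgfrb and 19 of Notch3. Acta2 stood at 11.3 CPM in all other cells of WT replicate 1 and at 0.444 in those of WT replicate 6.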

How the results depend on the processing

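The counts of genes called moved with depth and tool. With each cell thinned to 1500 UMIs, 480 genes were called higher and 492 lower than in endothelial cells, 453 and 471 than in fibroblasts, and 1849 and 2128 than in all other cells, with fewer genes tested. DESeq2 called 818 and 922 against endothelial cells and 803 and 847 against fibroblasts, but 3694 and 3315 against all other cells, where edgeR called 3336 and 3595. The cause was not tested. With the library as a replicate block the counts were 1846 and 1807, 1361 and 1432, and 3288 and 3690, within 1.5 times the counts without the block, and for the gene values of the text the block changed 2 calls, Foxf2 against endothelial cells and Igf2 against fibroblasts, both called lower in mural cells with the block. Leaving out 1 mural sum, so that the other is assumed to vary like the comparison class, gave 1148 to 1388 higher and 1279 to 1420 lower against endothelial cells, 1067 to 1325 and 1106 to 1347 against fibroblasts, and 3091 to 3115 and 3365 to 3605 against all other cells. With likely doublets left out, mural cells were 1.19% and 1.07% of cells. Without the filter on low counts the median over all genes against other cells was -0.62 on the log2 scale, and changes there are relative to it.

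Of 2068 recomputed values of single genes, 2020 kept direction and side of the threshold, 28 no longer passed, 11 newly passed and 9 changed sign. The sign changes were Gja4 against endothelial cells, at -0.0164 without likely doublets and -0.00549 without the contractile cells, Epas1 against endothelial cells, at 0.19 after thinning, Tgfbr1 against endothelial cells, at 0.0948 with 3000 to 30000 UMIs and under 5% mitochondrial UMIs, Tgfbr3 against endothelial cells, at -0.0603 with those limits, -0.29 after thinning, -0.0673 without the contractile cells and -0.00792 without mural replicate 6, and Mgp against fibroblasts, at -0.22 without the contractile cells, none of which passed the test. At 240 cells, genes under a few CPM in mural cells are not resolved, and 2 libraries measure little of the spread between samples.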
